A study of Mus musculus with 18 samples.

Results

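The genes described here are the ligands, receptors and modulators of Wnt signalling in mouse back skin under a subcutaneous expander. They were chosen by name: every Wnt, Fzd, Sfrp, Dkk and Rspo gene of the table, with Lrp5, Lrp6, Lgr4, Lgr5, Lgr6, Wif1, Notum, Frzb, Wls, Porcn and the intracellular genes Axin2, Lef1, Tcf7, Nkd1 and Nkd2. The rule found 56 of the 32285 genes counted, made up of 19 Wnt ligands, 2 genes of ligand secretion, 15 receptors and co-receptors, 4 R-spondin agonists, 11 secreted antagonists and 5 nuclear or feedback genes.

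The study measured mRNA in single cells of mouse skin with the 10x Genomics 3' assay, in 5 control and 5 expanded libraries. Every mouse had an incision near the tail and a path opened under the skin towards the neck, and was stitched closed; in the expanded arm (EXP) a hydrogel expander, which stretches the skin above it, was placed there, while the control arm (CTRL) had the same surgery with no expander. Each arm was sampled on day 1 in 2 sequencing rounds, on day 2 in 2 rounds and on day 4 in 1 round, and each library pools the mice of one arm and round, sorted as live, DAPI-negative cells. Strain, age and sex are not given in the sources used here, and no unoperated skin is among the samples, so both arms carry the response to surgery and only the expander separates them.

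Wnt proteins are lipid-modified by Porcn in the endoplasmic reticulum, carried to the cell surface by Wls, and bound there by Frizzled receptors with the co-receptors Lrp5 and Lrp6. In the canonical branch this stabilises beta-catenin, which acts through Tcf7, Lef1 and their relatives, and Axin2, Nkd1, Nkd2 and Notum are induced as feedback inhibitors. R-spondins act through Lgr4, Lgr5 and Lgr6 to keep Frizzled receptors on the surface, Sfrp proteins, Frzb and Wif1 bind the ligands, and Dkk1 and Dkk2 block Lrp5 and Lrp6. In skin the pathway is known for the growth of hair follicles, whose dermal papilla signals to the epithelium around it.

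The libraries held between 17726739 and 75470722 UMIs (unique molecular identifiers, each counting 1 captured transcript), and 45488 cells remained, 28452 control and 17036 expanded, with a median per library of 6440.5 to 12847.5 UMIs a cell. Of these, 42123 cells fell into 24 classes, built without the 56 genes. The other cells are in no class and have no levels here. Among them were 999 cells of a cluster led by Il17a, whose best marker list was gamma delta T. Another 690 were of a cluster led by Gzmc, whose best list was innate lymphoid or NK. A class called by a cell type carries that type's markers and is that type only in the sense of "-like"; a class called by a gene (Fmod, Tnn, Tnc, Krt24, Fcgbp, Hoxc13, Krt1, Krt25) is named by a leading gene. Cells of keratinocyte, fibroblast, vascular, nerve, pigment and immune kinds were all present, as the label of whole skin implies. The libraries shared 236 of 45252 distinct barcodes, and no pair of libraries shared more than 17. The fibroblast-like class held 9916 control and 1136 expanded cells, so its expanded libraries are thinner, down to 54 cells. Levels are given in CPM, the UMIs of the gene scaled to a fixed total of UMIs of the class in each library. The 3' assay counts a molecule once whatever its length, so CPM values of different genes need no correction for length. How fully each gene is captured was not measured, so orders of different genes are approximate. Within a class, fewer cells that use a gene and less RNA in each cell cannot be told apart in such sums.

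All 56 genes had at least 1 UMI. With 3 UMIs in a library taken as detection, 47 were detected in all 10 libraries, 6 in some and 3 in none. The genes not detected in any library were the ligands Wnt8a with 5 UMIs in all, Wnt8b with 4, and the antagonist Dkk4 with 3. Detected in part of the libraries were Rspo2 in 8, Wnt3a in 7, and Dkk1, Wnt1, Wnt7a and Wnt9b in 3 each. At the other end stood Wls with 44733 UMIs, Dkk2 with 36557, Wif1 with 35781, Wnt5a with 30786, Fzd2 with 29200 and Sfrp1 with 27306. Lrp6 had a UMI in 13872 cells and Wls in 20716, the broadest of the set, while Sfrp4 had 931 UMIs in only 203 cells.

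The classes divided the pathway between them. Of the 47 genes detected throughout, 13 had their highest control mean in the dermal papilla-like class, 7 in the Krt24 keratinocytes, 5 in the Fmod cells, 4 in the gamma delta T-like class and 3 in the Fcgbp keratinocytes, among classes with at least 8 libraries. These orders are a description of clusters made from the same cells and carry no test.

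**Figure D1:**
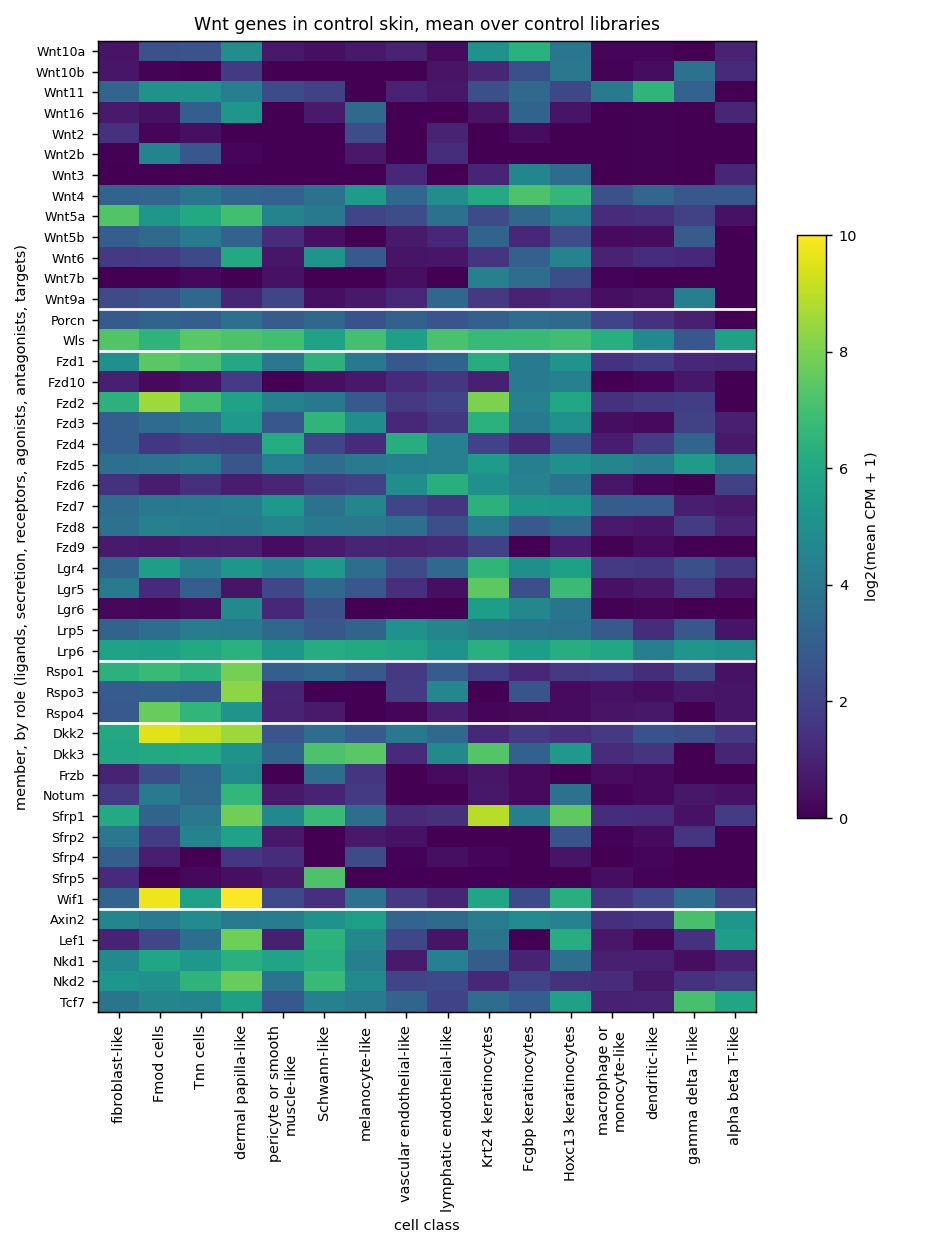
Mean CPM over control libraries of each gene detected in all 10 libraries (rows, by role) in each tested cell class (columns), as log2(mean CPM + 1) with the colour scale labelled beside it. Dkk2 is brightest in the Fmod and Tnn cells, Wif1 in the Fmod cells and the dermal papilla-like class, Sfrp1 and Lgr5 in the Krt24 keratinocytes, and Wnt11 in the dendritic-like class.

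Among ligands, Wnt5a, which signals mostly outside the beta-catenin branch, was the leading one of the mesenchyme: 154 ± 32.3 CPM (SD, n = 5 control libraries) in the fibroblast-like class, 125 ± 56.3 (n = 4) in the dermal papilla-like class, 65.8 ± 21.2 (n = 5) in the Tnn cells and 38.1 ± 10.3 (n = 5) in the Fmod cells. The fibroblast-like and dermal papilla-like levels did not differ beyond their spread. Keratinocytes carried other ligands: Wnt4 stood at 146 ± 40.7 CPM (n = 5) and Wnt10a at 83.2 ± 8.74 (n = 5) in the Fcgbp keratinocytes, and Wnt4 at 97.5 ± 14.4 (n = 4) in the Hoxc13 and 68.8 ± 5.34 (n = 4) in the Krt24 keratinocytes. Wnt3 and Wnt7b were lower, at 23.2 ± 9.88 CPM (n = 5) in the Fcgbp and 19.7 ± 8.77 (n = 4) in the Krt24 keratinocytes. Wnt6 was highest in the dermal papilla-like class, at 66.5 ± 35.2 CPM (n = 4). Wnt9a had its highest control level in the gamma delta T-like class, at 18.3 ± 5.14 CPM (n = 5), and Wnt10b stood at 14.5 ± 7.17 CPM in the Hoxc13 keratinocytes (n = 4) and 12.8 ± 5.36 in the gamma delta T-like class (n = 5). The ligand of the dendritic-like class was Wnt11, at 92.5 ± 32.3 CPM (n = 5), against 33.5 ± 16 in the Fmod cells and 16.8 ± 9.2 in the macrophage or monocyte-like class.

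Receptors were spread more widely. Lrp6, the co-receptor, kept between 19 and 81.6 CPM across the control means of the tested classes, lowest in the dendritic-like and highest in the dermal papilla-like class. Frizzled genes were more divided: Fzd2 reached 374 ± 60.2 CPM (n = 5) in the Fmod cells and 260 ± 61.7 (n = 4) in the Krt24 keratinocytes. Fzd6 was highest in the lymphatic endothelial-like class at 75.6 ± 16 (n = 5). Fzd4 was at 73.8 ± 16 in the vascular endothelial-like and 72.1 ± 12.8 in the pericyte or smooth muscle-like class (n = 5 each). Fzd3 was at 92.7 ± 20.9 in the Schwann-like class and 83.5 ± 22.7 in the Krt24 keratinocytes (n = 4 each). Neither pair differed beyond its spread. Lgr5, an R-spondin receptor and a known marker of follicle stem cells, was at 175 ± 18 CPM (n = 4) in the Krt24 keratinocytes and had a UMI in 52.3% of their control cells (95% Wilson interval 48.3 to 56.2), against 0.317% of the control macrophage or monocyte-like cells. The median depth was 7933 UMIs a cell in the first and 6246 in the second. The intervals and limits given here cover counting error only.

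Antagonists reached the highest levels of any role. Wif1 stood at 1153 ± 611 CPM (n = 4) in the dermal papilla-like class and 850 ± 179 (n = 5) in the Fmod cells, and these did not differ beyond their spread. It had a UMI in 77.6% and 52.7% of those control cells, against 2.37% of the fibroblast-like and 0.889% of the macrophage or monocyte-like cells. Dkk2 stood at 759 ± 83 CPM in the Fmod cells, 576 ± 77 in the Tnn cells (n = 5 each) and 363 ± 164 (n = 4) in the dermal papilla-like class. Sfrp1 was the leading antagonist of the Krt24 keratinocytes, at 486 ± 103 CPM (n = 4). In the Schwann-like class Sfrp5 at 147 ± 65.8 CPM and Dkk3 at 147 ± 44.8 (n = 4) were level, and Sfrp1 was at 110 ± 32.9. The agonists were mesenchymal too: Rspo3 at 307 ± 257 CPM and Rspo1 at 242 ± 188 (n = 4) were highest in the dermal papilla-like class, with wide spread between libraries, and Rspo4 at 202 ± 21 (n = 5) in the Fmod cells. Of the nuclear and feedback genes, Lef1 and Nkd2 stood at 223 ± 45.4 and 205 ± 25.9 CPM (n = 4) in the dermal papilla-like class. Among the named classes, Tcf7 and Axin2 had their highest levels in the gamma delta T-like class, at 135 ± 41.3 and 133 ± 47.6 (n = 5). The unnamed Il17a cluster is not part of that class.

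To ask which of these genes changed with the expander, UMIs were summed per class and library and the arms were compared in 16 classes with edgeR's quasi-likelihood test, with day as a term and Benjamini-Hochberg adjustment over all genes tested in the class. A gene is said to have risen or fallen only at an adjusted p below 0.05. Fold changes are after TMM scaling and can differ from the ratio of the CPM means. Libraries are pools of mice, so p-values measure the spread between pools. Of 279 tests of a member in a class, 35 passed, 20 upward and 15 downward, and they belonged to 25 of the 45 members tested in some class. These 35 are 12.5% of the members' tests, close to the 10.7% called over all genes in the same classes. In 17 of the 35 (48.6%) the libraries of one arm lay wholly apart from those of the other, much as in 48.2% of the calls over all genes; calls with arms apart made up 6.09% of the members' tests and 5.15% of the tests over all genes. The 11 members tested in no class were Dkk1, Dkk4, Fzd9, Rspo2, Wnt1, Wnt10b, Wnt3a, Wnt7a, Wnt8a, Wnt8b and Wnt9b.

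**Figure D2:**
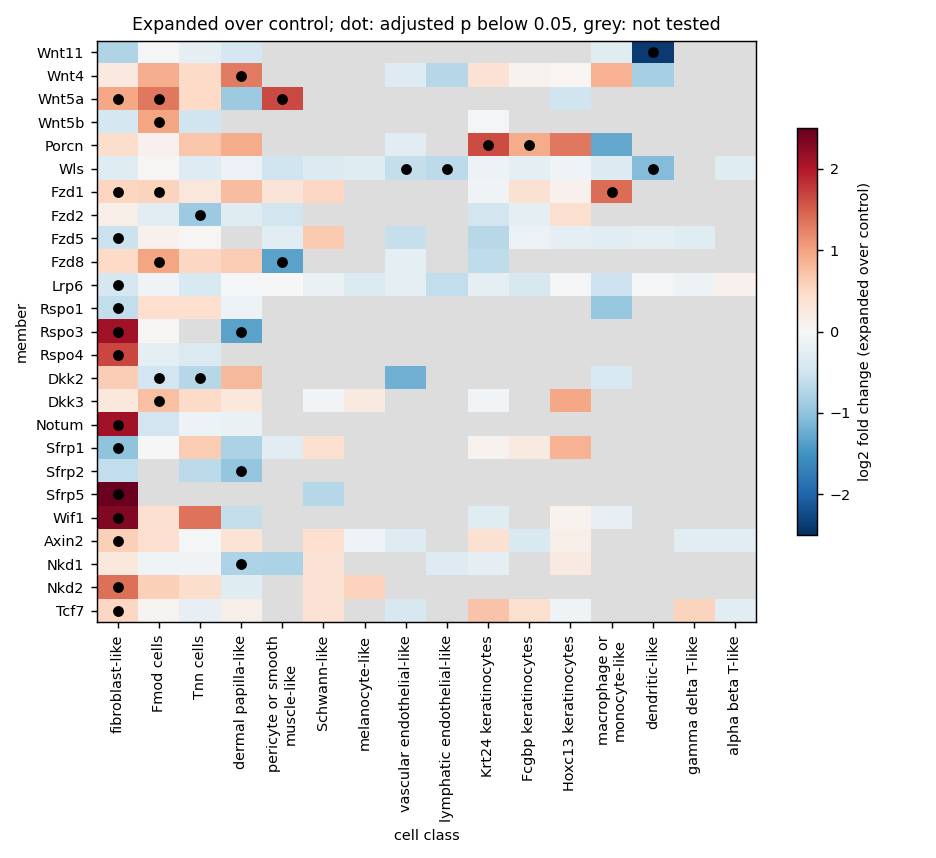
Fold change on the log2 scale, expanded over control, of each member called in some class (rows) in each tested class (columns), after TMM scaling (larger changes than the colour scale holds share its end colours). A dot marks an adjusted p below 0.05 and grey a gene not tested there; the fibroblast-like column holds 14 of the 35 dots.

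Tcf7 and Lef1 proteins can bind DNA before the start site of a gene. The sequence there is given for 3 of the members that changed in a single class. They are examples, 2 that hold a match and 1 that holds none, and do not stand for the other members. RefSeq promoters (build GRCm38.p6, the 250 bases before a start) were at hand for 37 of the 56 members, 44 promoters in all. They were searched on both strands for 7 letters, CTTTG followed by 2 letters that are each A or T, the core of the Tcf and Lef motif, which overlaps no other motif searched. Of the member promoters 5 (11.4%) held a match, those of Fzd7, Lef1, Wnt5b, Wnt11 and Dkk1, against 4874 of 32851 promoters of all genes (14.8%). Shown are Wnt11, which fell in the dendritic-like class, Wnt5b, which rose in the Fmod cells, and Nkd2, which rose in the fibroblast-like class, each 5' to 3' on the gene's strand, with matches in capitals. They lie at chr7:98834862-98835111 (plus strand), chr6:119449387-119449636 (minus strand, 1 of 3 start sites) and chr13:73847632-73847881 (minus strand).
Wnt11: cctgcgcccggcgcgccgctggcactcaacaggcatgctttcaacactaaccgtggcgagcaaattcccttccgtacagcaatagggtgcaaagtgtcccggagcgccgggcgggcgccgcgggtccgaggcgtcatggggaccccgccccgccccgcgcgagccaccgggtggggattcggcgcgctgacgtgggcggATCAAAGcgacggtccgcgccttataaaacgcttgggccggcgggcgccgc
Wnt5b: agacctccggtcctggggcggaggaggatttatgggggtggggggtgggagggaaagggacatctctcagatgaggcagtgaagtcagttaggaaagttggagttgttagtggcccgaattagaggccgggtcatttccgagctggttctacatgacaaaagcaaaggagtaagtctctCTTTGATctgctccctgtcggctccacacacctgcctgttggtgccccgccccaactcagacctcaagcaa
Nkd2: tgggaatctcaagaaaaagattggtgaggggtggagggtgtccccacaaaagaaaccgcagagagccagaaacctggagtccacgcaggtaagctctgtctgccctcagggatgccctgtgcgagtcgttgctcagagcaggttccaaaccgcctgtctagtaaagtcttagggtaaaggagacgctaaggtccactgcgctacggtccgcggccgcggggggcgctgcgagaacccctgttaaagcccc
The Wnt11 match, on the opposite strand, begins 51 bases before the start, and that of Wnt5b, on the gene's strand, 71 bases before it. The Nkd2 window holds none of these letters. A match is a description of the letters and is no evidence of binding.

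In the fibroblast-like class 14 of the 39 members tested were called, 10 higher and 4 lower, where 25.6% of all genes tested were called. The members' median was 0.24 on the log2 scale, against 0.02 over all genes tested. The higher ones were the ligand Wnt5a, the agonists Rspo3 and Rspo4, the receptor Fzd1, the antagonists Wif1, Sfrp5 and Notum, and Axin2, Nkd2 and Tcf7. The lower ones were Sfrp1, Rspo1, Fzd5 and Lrp6. With total UMIs as the only scaling, chosen after seeing the data, 32.7% of all genes were called and the members split into 15 higher and 1 lower: Rspo1, Fzd5 and Lrp6 were then not called (adjusted p = 0.148, 0.18 and 0.373), and the median of all genes moved from 0.02 to 0.25.

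The most separated was Nkd2 (chr13:73818534-73847631, minus strand, mm10), a feedback inhibitor that binds Dishevelled. Its control libraries held 38.3 and 43.4 CPM on day 1, 27 and 40.4 on day 2, and 38.6 on day 4. Its expanded libraries held 97.4 and 122, 132 and 126, and 98.8 CPM on the same days. Every expanded library was therefore above every control library on each day, and the change was 1.38 ± 0.15 on the log2 scale (SE, n = 5 and 5, edgeR adjusted p = 0.000419). A UMI of Nkd2 was seen in 28.2% of control and 52.9% of expanded cells, at median depths of 10946 and 14434 UMIs, against 1.02% and 0.573% of the macrophage or monocyte-like cells at 6246 and 11741.5.

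Wnt5a (chr14:28504750-28527448) stood at 121 and 159 CPM in control libraries of day 1, 120 and 186 on day 2, and 185 on day 4. In expanded libraries it stood at 315 and 288, 369 and 487, and 314 CPM. The arms did not overlap on any day, and the change was 0.96 ± 0.15 (log2, SE, n = 5 and 5, edgeR adjusted p = 0.00162).

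The R-spondins split. Rspo3 (chr10:29452416-29535867) was at 2.93, 8.1, 5.5, 8.54 and 7.79 CPM in control and at 12.6, 34.1, 26.4, 78.3 and 34.6 in expanded libraries, in the order of day and round. It rose by 2.10 ± 0.37 (log2, SE, edgeR adjusted p = 0.00263), and Rspo4 by 1.67 ± 0.35 (adjusted p = 0.00622), both with arms apart. Rspo1, the most abundant of the 3 in control fibroblast-like cells at 86 ± 15.1 CPM, fell by 0.62 ± 0.18 (adjusted p = 0.0278), lower in 4 of 5 pairs of libraries of the same day and round. The Rspo1 call was lost when any of 8 single libraries was left out, with an adjusted p up to 0.0997.

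The secreted antagonists also went both ways. Wif1 (chr10:121033960-121100650) was at 2.8, 3.15, 9.09, 16.9 and 10.3 CPM in control and at 7.14, 25.3, 27.4, 93.2 and 136 in expanded libraries. It was higher in 5 of 5 pairs, although the lowest expanded library lay within the control range, and rose by 2.31 ± 0.41 (log2, SE, edgeR adjusted p = 0.00256). Notum, an extracellular enzyme that removes the lipid from Wnt proteins, went from 2.24 to 11.5 CPM on average, with arms apart, and rose by 2.10 ± 0.38 (adjusted p = 0.00279). Sfrp5 was scarce, with 1.38 CPM in control and 9.55 in expanded libraries, and rose by 2.47 ± 0.55 (adjusted p = 0.00817); its expanded library of day 1 round 2 held 1 UMI.

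Sfrp1 was the antagonist that fell, by 1.00 ± 0.23 (log2, SE, edgeR adjusted p = 0.0087). Its control libraries held 34.9 and 38 CPM on day 1, 93 and 106 on day 2, and 66 on day 4, and its expanded ones 35.6 and 34.4, 31.9 and 27.3, and 43.3. On day 1 the arms were level, and on days 2 and 4 all control libraries were above all expanded ones. The difference between the effects of day 2 and day 1 was -1.52 by edgeR (adjusted p = 0.663) and -1.50 by DESeq2 (adjusted p = 0.0429), so the 2 tests fall on different sides of the threshold.

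The remaining calls of this class were smaller. Axin2, a direct target of beta-catenin, rose by 0.59 ± 0.16 (edgeR adjusted p = 0.0193) with arms apart, Fzd1 by 0.54 ± 0.14 (0.0155) with arms apart, and Tcf7 by 0.51 ± 0.17 (0.0483) with arms overlapping. Fzd5 fell by 0.53 ± 0.15 (0.0275) and Lrp6 by 0.42 ± 0.14 (0.0467), both with arms overlapping. Fzd5 was lower in 5 of 5 pairs, while Lrp6 was lower in 3 and higher in 2. Leaving out 1 library ended the Axin2 call (without the control library of day 1 round 2) and the Fzd1 call (without either library of day 4). It also ended the Tcf7 call for 7 libraries, all but control and expanded of day 4 and expanded of day 1 round 2, the Fzd5 call for 5 (both of day 1 round 1, both of day 2 round 1 and the control of day 1 round 2) and the Lrp6 call for 9, all but expanded of day 1 round 2. For Rspo1 the libraries were all but those of day 1 round 1. With the sequencing round as a block, Lrp6 did not pass (-0.42 ± 0.15, edgeR adjusted p = 0.0635). Here and below this block is a term for each day and round, which pairs the control and expanded libraries.

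The edge of the class also bore on its calls. With the Tnc cells, an unnamed cluster with fibroblast markers, joined to it, a setting chosen after seeing the data, 5 members did not pass: Axin2 (0.21 ± 0.18, edgeR adjusted p = 0.386), Sfrp1 (-0.44 ± 0.24, 0.185), Tcf7 (0.38 ± 0.17, 0.104), Fzd1 (0.29 ± 0.11, 0.0583) and Sfrp5 (1.62 ± 0.59, 0.0524). The change of Wnt5a was then 0.47 (adjusted p = 0.0185) and that of Nkd2 1.26 (0.000248). Without the Apod cluster, chosen likewise, Rspo1 and Fzd1 did not pass (adjusted p = 0.12 and 0.161). With cells thinned to 2000 UMIs, Axin2, Tcf7, Fzd5, Fzd1, Lrp6 and Rspo1 did not pass (adjusted p = 0.248, 0.198, 0.159, 0.089, 0.0866 and 0.0785). The 5% mitochondrial limit ended the calls of Lrp6 (0.0563) and Tcf7 (0.061), and no filter on low counts that of Tcf7 (0.0589).

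**Figure D3:**
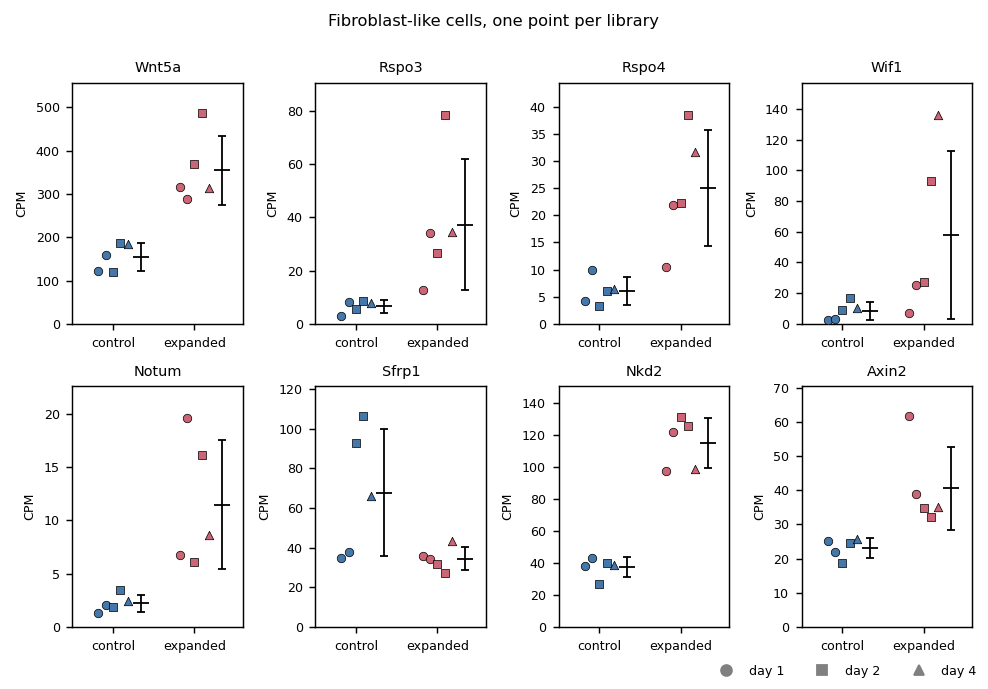
CPM of 8 of the members called in the fibroblast-like class, 1 point per library, control and expanded, with days marked by symbol and the mean and SD of each arm as a line with bars. Nkd2 and Wnt5a separate the arms in every library, and the control points of Sfrp1 lie higher on days 2 and 4 than on day 1.

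The fibroblast-like class joins 7 clusters, and the arms filled them unequally. The cluster led by Mme held 5.03% of the control and 22.7% of the expanded cells of the class (2.94% to 7.65% over control and 13.3% to 38.9% over expanded libraries). The cluster led by Apod held 2.70% and 24.4% (1.78% to 5.92% and 11.6% to 41.2%), and the cluster led by Mirg 35.5% and 8.71%. Several of the changed members were concentrated in these clusters in both arms. Pooled over libraries, Rspo3 stood in the Mme cluster at 87.8 CPM in control and 86 in expanded cells, and at most 9.28 in any other cluster. Notum stood there at 26.3 and 34.1, and Rspo4 at 41.8 and 50.1. Sfrp5 stood in the Apod cluster at 84.5 CPM in control and 45.7 in expanded cells and at or below 0.13 elsewhere. Sfrp1 was highest in the Sult1e1 cluster, at 419 and 128 CPM, a cluster that held 7.37% of control and 2.90% of expanded cells.

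Within the Mme cluster alone, 7 of the 23 members tested were called, where 10.4% of all genes were, a comparison added after seeing the data. Nkd2 rose there by 0.51 ± 0.13 (log2, SE, edgeR adjusted p = 0.019), Wif1 by 1.73 ± 0.39 (0.011), Dkk3 by 1.21 ± 0.28 (0.0121) and Sfrp1 by 1.41 ± 0.35 (0.0176), the last against its direction in the whole class. Wnt11 fell by 1.34 ± 0.38 (0.0341), Rspo1 by 0.87 ± 0.16 (0.00338) and Fzd2 by 0.71 ± 0.15 (0.0082). Changes that did not pass within the Mme cluster were -0.13 ± 0.20 for Rspo3 (0.732), 0.20 ± 0.32 for Notum (0.747), 0.23 ± 0.20 for Rspo4 (0.511), 0.35 ± 0.15 for Wnt5a (0.152) and -0.43 ± 0.20 for Axin2 (0.181). In the Apod cluster alone, where the same library held 16 cells and was left out, Sfrp5 was at -0.80 ± 0.70 (edgeR adjusted p = 0.524). The cluster shares and the levels within clusters thus moved by different amounts for different members, and their parts in the class values were not tested apart. Fibroblast markers and dermal papilla markers moved in the class as well: the summed level of the 10 fibroblast markers ranged from 76960 to 184317 CPM over control and from 46586 to 97242 over expanded libraries, and that of the 10 dermal papilla markers from 219 to 427 and from 369 to 1516, with no marker of either list at 0. Of the 5 dermal papilla markers tested, 3 were higher and 1 lower, and their part in the result was not tested.

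**Figure D4:**
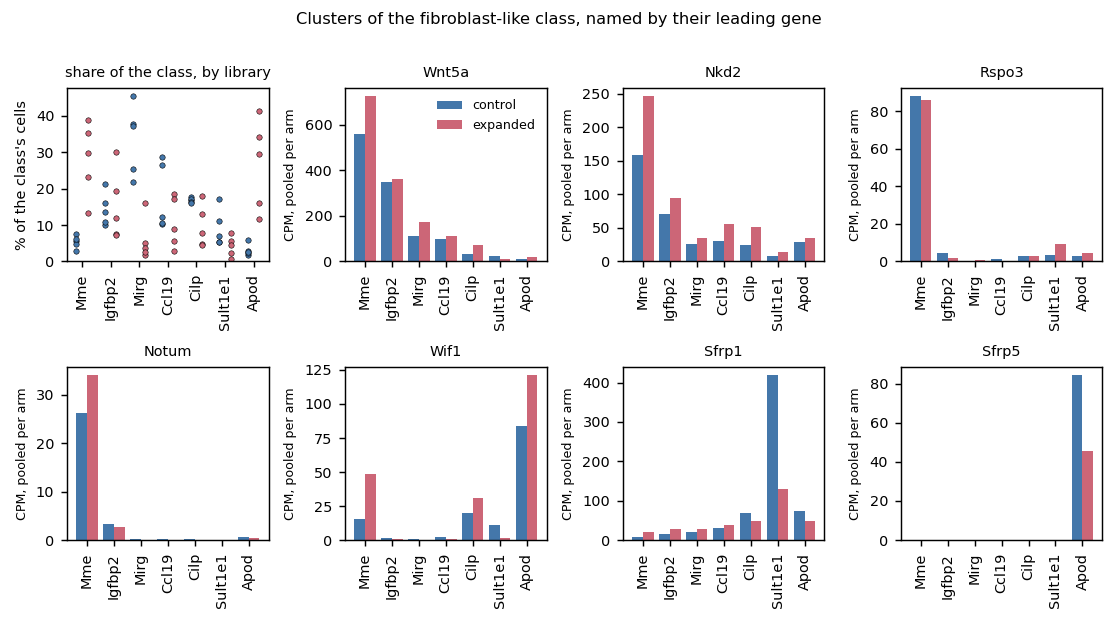
Share of the fibroblast-like class held by each of its 7 clusters in each library (first panel, percent), and CPM pooled per arm in each cluster for members called in the class (other panels). The Mme and Apod clusters hold more of the class in expanded libraries, and Rspo3 and Notum are concentrated in the Mme cluster in both arms.

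The Fmod cells, a mesenchymal cluster led by fibromodulin, had 6 of 29 members called, 5 higher and 1 lower, against 3.41% of all genes tested. Wnt5a was at 34.8 and 46.7 CPM in control libraries of day 1, 21.9 and 46.2 on day 2, and 41.1 on day 4, and at 168 and 117, 72.6 and 59.6, and 84.4 in expanded ones. The arms did not overlap, and Wnt5a rose by 1.32 ± 0.20 (log2, SE, n = 5 and 5, edgeR adjusted p = 0.00582). Its relative Wnt5b rose by 0.98 ± 0.20 (0.0204) and the receptor Fzd8 by 0.99 ± 0.16 (0.00631), both with arms apart. Fzd1 rose by 0.56 ± 0.12 (0.0239) and Dkk3, a Dickkopf relative, by 0.74 ± 0.16 (0.0262), while Dkk2 fell by 0.48 ± 0.12 (0.0388), lower in 5 of 5 pairs. Leaving out 1 library never ended the Wnt5a and Fzd8 calls. It ended those of Wnt5b for 4 libraries (both of day 1 round 1, control of day 1 round 2 and expanded of day 2 round 1), of Dkk3 for 5 (control of day 1 round 1, expanded of day 1 round 2 and day 2 round 2, both of day 4), of Fzd1 for 8 (all but expanded of day 2 round 1 and control of day 2 round 2) and of Dkk2 for 8 (all but expanded of day 1 round 1 and control of day 2 round 2). The Dkk2 call was also lost under total-UMI scaling (adjusted p = 0.0565) and thinning (0.0509). With the sequencing round as a block Nkd2 passed too (0.63 ± 0.15, adjusted p = 0.0254; 0.59 ± 0.17 and 0.0763 without it). Wif1, the most abundant member here, did not pass (0.40 ± 0.19, adjusted p = 0.257): its expanded libraries ran from 669 to 2033 CPM and its control ones from 689 to 1122. The summed level of the fibroblast markers ranged from 22720 to 30438 CPM in control and 21062 to 26273 in expanded libraries, and its part in these changes was not tested.

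In the Tnn cells 2 of 30 members fell and none rose, with 7.31% of all genes called. Dkk2 was at 678, 628, 510, 567 and 497 CPM in control and at 618, 393, 253, 279 and 277 in expanded libraries, in the order of day and round. It fell by 0.71 ± 0.15 (log2, SE, edgeR adjusted p = 0.0106), and Fzd2, from 126 to 66.4 CPM, by 0.91 ± 0.19 (0.00887). Both were lower in 5 of 5 pairs, although in each only the day 1 round 1 expanded library reached into the control range. Nkd2, which rose in the fibroblast-like class, was higher in 5 of 5 pairs here without passing (0.45 ± 0.14, adjusted p = 0.0574); with the sequencing round as a block it passed (0.48 ± 0.12, adjusted p = 0.0179). Fibroblast transcripts fell in this class as well: 4 of the 5 free-RNA genes, collagens and other fibroblast genes used in each class as a measure of free RNA, were lower (median of the 5 -0.90), with a summed level of 21616 to 41721 CPM over control and 16754 to 23735 over expanded libraries. Of the 10 fibroblast markers 5 were lower (18802 to 36981 and 15863 to 22227 CPM, none at 0). Both dendritic markers tested, of 11, were lower (25.1 to 88.1 and 10.4 to 40.7 CPM for the whole list, with 3 of the 11 at 0 in control and 2 in expanded cells). Their part in the changes of Dkk2 and Fzd2 was not tested.

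In the dermal papilla-like class the comparison rests on 4 libraries an arm, because both libraries of day 1 round 1 held under 20 of its cells, and 4 of 31 members were called, where 3.61% of all genes were. Rspo3 was at 683 CPM in the control library of day 1, 113 and 181 on day 2, and 251 on day 4, and at 130, 98.3 and 121, and 72.3 in the expanded ones. It was lower in 4 of 4 pairs, with 2 expanded libraries above the lowest control library, and fell by 1.34 ± 0.28 (log2, SE, n = 4 and 4, edgeR adjusted p = 0.0153). A UMI of Rspo3 was seen in 43.9% of control and 26.6% of expanded cells at median depths of 4943 and 5354.5 UMIs, against 0.127% and 0.0382% of the macrophage or monocyte-like cells at 6246 and 11741.5. Sfrp2 fell by 0.96 ± 0.24 (0.0411) and Nkd1 by 0.78 ± 0.20 (0.0457), both lower in 4 of 4 pairs, and Wnt4 rose by 1.29 ± 0.34 (0.0457) from 8.69 to 19 CPM. The Wnt4 call was lost under every single library left out (adjusted p up to 0.325) and under DESeq2 (0.1), the round as a block (0.0561), total-UMI scaling (0.0504), no filter on low counts (0.0728) and the 5% mitochondrial limit (0.0542). Leaving out any of 6 libraries ended the calls of Sfrp2 and Nkd1 (both of day 1 round 2, expanded of day 2 round 1, control of day 2 round 2, both of day 4), and any of 4 that of Rspo3 (both of day 1 round 2, both of day 4). By DESeq2 the adjusted p was 0.0803 for Sfrp2 and 0.0676 for Nkd1, and with thinned cells 0.0634 and 0.128. The 5 fibroblast free-RNA genes were at 4492 to 21797 CPM over control and 2248 to 4879 over expanded libraries of this class, with 4 of the 5 lower, and 3 of the 8 dermal papilla markers tested were lower as well; their part in these changes was not tested.

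Rspo3 thus had calls of opposite sign in the fibroblast-like and dermal papilla-like classes, higher in 5 of 5 pairs in the first and lower in 4 of 4 in the second. The other member with opposite calls was Fzd8, higher in 5 of 5 pairs in the Fmod cells and lower in 5 of 5 in the pericyte or smooth muscle-like class. Both were picked for the signs of their calls, so these are descriptions and the differences between classes were not tested.

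In the pericyte or smooth muscle-like class 2 of 12 members were called, with 19.3% of all genes. Wnt5a was at 36.9, 14.1, 27, 12.1 and 19 CPM in control and at 51.8, 38.5, 71.1, 94.9 and 93.7 in expanded libraries. The arms did not overlap, and it rose by 1.66 ± 0.33 (log2, SE, n = 5 and 5, edgeR adjusted p = 0.00519). Fzd8 was at 18.4, 18.1, 27, 33.3 and 17.7 CPM in control and at 16.3, 7, 5.31, 8.37 and 10.2 in expanded libraries, again with no overlap, and fell by 1.34 ± 0.32 (0.0129). With the sequencing round as a block the feedback gene Nkd1 passed as well (-0.80 ± 0.23, adjusted p = 0.03). The summed fibroblast free-RNA genes ranged from 3550 to 31060 CPM in control and from 3232 to 12256 in expanded libraries of this class. Wnt5a was thus higher with the expander in the fibroblast-like, Fmod and pericyte or smooth muscle-like classes, and was not called in the Tnn cells (0.50 ± 0.22, adjusted p = 0.196) or the dermal papilla-like class (-0.90 ± 0.34, 0.173).

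The dendritic-like class had 2 of 6 members called, both lower, with 12.7% of all genes. Wnt11 (chr7:98835112-98855195, plus strand) was at 89.8 and 108 CPM in control libraries of day 1, 132 and 43.8 on day 2, and 89.4 on day 4. Its expanded libraries held 14.8 and 31.9, 22.6 and 10.7, and 21.4 CPM. Every expanded library was below every control library, and Wnt11 fell by 2.39 ± 0.34 (log2, SE, n = 5 and 5, edgeR adjusted p = 0.00306), the largest change among members called in a class outside the fibroblast-like one. A UMI was seen in 38.2% of control cells (95% Wilson interval 36.2 to 40.2) and 15.8% of expanded cells (13.0 to 19.0), at median depths of 10326 and 13601.5 UMIs, against 0.579% and 0.461% of vascular endothelial-like cells at 5149 and 9571. Wls fell in the same class by 1.08 ± 0.21 (0.0103), with arms apart. Within its main cluster alone, led by Ear2, the changes were -2.52 for Wnt11 and -1.08 for Wls, both called. Fibroblast free RNA moved in the same direction, from 253 to 5386 CPM over control and from 40.8 to 312 over expanded libraries, with 5 of 5 genes lower. In control fibroblast-like cells Wnt11 was at 8.52 CPM, below its dendritic-like level in both arms, whereas Wls was at 156 CPM, above its dendritic-like means of 26.5 in control and 14.3 in expanded libraries. Of the 11 macrophage or monocyte markers 3 were lower (5566 to 9793 CPM summed over control and 3343 to 5694 over expanded libraries), as were 4 of the 11 dendritic markers (46858 to 60451 and 33324 to 51487). The part of these in the changes of Wnt11 and Wls was not tested.

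Wls, which every Wnt-secreting cell needs, was lower in both endothelial classes. In the lymphatic endothelial-like class it was at 92.9, 118, 200, 133 and 151 CPM in control and at 92.7, 79.9, 98.1, 98.4 and 80.6 in expanded libraries, and fell by 0.66 ± 0.18 (log2, SE, edgeR adjusted p = 0.0294; 1 of 7 members called, 11.6% of all genes). In the vascular endothelial-like class it fell by 0.59 ± 0.17 (0.0399; 1 of 13 members, 12.2% of all genes), lower in 4 of 5 pairs. The vascular call was lost under total-UMI scaling (adjusted p = 0.0867), within the main cluster led by Rbp7 (0.066), and without any library but the control of day 2 round 1; the lymphatic call was lost without the control of day 1 round 2, of day 2 round 1 or of day 4, or the expanded of day 2 round 2 or of day 4. With mice as units the vascular change was -0.27 (adjusted p = 0.546). With thinned cells neither passed (0.141 in the vascular and 0.137 in the lymphatic class), and with no filter on low counts the lymphatic one did not (0.0626).

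Some fibroblast markers fell in both classes too. Wls itself was at 156 CPM in control fibroblast-like cells, against 48.5 in the vascular and 139 in the lymphatic endothelial-like class. In the vascular class 5 of 8 fibroblast markers tested were lower (median -1.91), and the list's summed level was 1084 to 2350 CPM over control and 55.5 to 2409 over expanded libraries. In the lymphatic class 3 of 8 were lower (median -2.16), from 1270 to 13261 and from 145 to 10532 CPM. No fibroblast marker was at 0 in either class. Their part in the change of Wls was not tested.

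Porcn, the acyltransferase of Wnt ligands (X:8193848-8206525), rose in 2 keratinocyte classes. In the Krt24 keratinocytes it was at 4.39, 6.7, 8.49 and 9.59 CPM in 4 control libraries and at 22.2, 22.8, 15.5, 21.7 and 26.1 in 5 expanded ones, with no overlap, and rose by 1.63 ± 0.23 (log2, SE, edgeR adjusted p = 0.00835; 1 of 25 members called, 4.07% of all genes). Without the control library of day 1 round 1 the adjusted p was 0.0516. In the Fcgbp keratinocytes it rose by 0.92 ± 0.29 (0.0312; 1 of 21 members, 25.5% of all genes), higher in 5 of 5 pairs with arms overlapping, and leaving out any of 7 libraries, or the 5% mitochondrial limit (adjusted p = 0.0731), ended that call (the libraries were all but expanded of day 1 round 2 and of day 2 round 1, and control of day 2 round 2). With the sequencing round as a block 2 members passed there, Porcn and the ligand Wnt16 (1.07 ± 0.35, adjusted p = 0.0333). The fibroblast free-RNA genes fell in these classes, from means of 3812 to 353 CPM in the Krt24 and 1688 to 139 in the Fcgbp keratinocytes. Median depths of control and expanded cells were 7933 and 11422 UMIs in the Krt24 and 9449 and 15692.5 in the Fcgbp keratinocytes. The part of free RNA and of depth in the changes of Porcn was not tested.

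In the macrophage or monocyte-like class 1 of 13 members was called, where 22.5% of all genes were. Fzd1 was at 1.82, 1.87, 1.3, 2.51 and 1.34 CPM in control and at 6, 5.94, 4.27, 3.64 and 5.94 in expanded libraries, with no overlap, and rose by 1.39 ± 0.28 (log2, SE, edgeR adjusted p = 0.00789). With the sequencing round as a block 2 members passed, Fzd1 and Lrp6 (-0.53 ± 0.16, adjusted p = 0.0377). The Fzd1 levels are low: a UMI was seen in 1.17% of control and 4.17% of expanded cells at median depths of 6246 and 11741.5 UMIs. In vascular endothelial-like cells, at 5149 and 9571 UMIs, the shares were 2.45% and 2.86%. The control share of the macrophage or monocyte-like class lay below these and its expanded share above them. All 5 fibroblast free-RNA genes were lower in this class (median -3.25 on the log2 scale). Whether the Fzd1 UMIs come from these cells or from free RNA was not tested, and they are not read as expression. The arms also filled different clusters of the class: 50.2% of control cells lay in the cluster led by Cd209f and 37.9% in that led by Clec12a, while 54.6% of expanded cells lay in that led by Tmem8 and 28.7% in that led by Chil3.

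**Figure D5:**
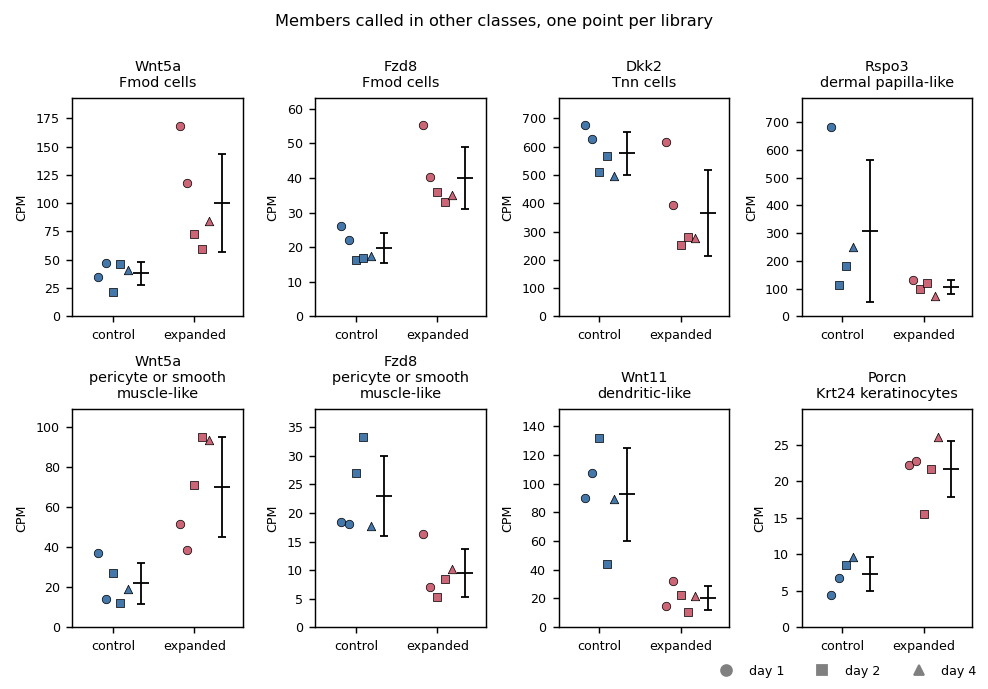
CPM in each library, control and expanded, of members called in classes other than the fibroblast-like one, with days marked by symbol and the mean and SD of each arm as a line with bars; libraries with under 20 cells of a class have no point. Wnt11 in the dendritic-like class lies at 43.8 CPM or above in control and at 31.9 or below in expanded libraries, and Wnt5a in the Fmod and pericyte or smooth muscle-like classes is higher in every expanded library than in any control library.

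No member was called in 5 classes by edgeR: 0 of 24 in the Hoxc13 keratinocytes (0.0559% of all genes called), 0 of 15 in the Schwann-like class (0.198%), 0 of 5 in the alpha beta T-like class (0%), 0 of 4 in the gamma delta T-like class (0.392%) and 0 of 5 in the melanocyte-like class (1.3%). At an unadjusted p below 0.05 the numbers were 6, 2, 0, 1 and 0, and DESeq2 called 0 in each. The lowest p values in the Hoxc13 keratinocytes were those of Sfrp1 (0.88 ± 0.28, edgeR adjusted p = 0.214), Porcn (1.31 ± 0.42, 0.215) and Dkk3 (0.97 ± 0.34, 0.238). In the Schwann-like class they were Fzd1 (0.53 ± 0.22, 0.46), Sfrp5 (-0.71 ± 0.30, 0.464) and Nkd2 (0.36 ± 0.18, 0.52). Tcf7, a factor of T cell development, was higher in 5 of 5 pairs in the gamma delta T-like class without passing (0.56 ± 0.20, 0.286), followed by Axin2 (-0.26 ± 0.18, 0.661) and Fzd5 (-0.30 ± 0.34, 0.816). In the alpha beta T-like class Wls, Tcf7 and Axin2 came first (adjusted p = 0.912, 0.936 and 0.94), and in the melanocyte-like class Nkd2, Wls and Lrp6 (0.66, 0.664 and 0.697).

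Whether the effect of the expander differed between day 2 and day 1 could be asked in 10 classes. By edgeR 0 of 174 tests of a member passed, and 0% of 85471 tests over all genes in these classes passed. DESeq2 called 1 member, Sfrp1 in the fibroblast-like class, and 0.0983% of all tests. With 2 libraries per arm and day such differences are weakly resolved, and day 4, with 1 library per arm, enters only through the shared spread.

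Another 51 genes of the pathway that are not among the 56 were tested the same way. In the fibroblast-like class 11 of 45 tested rose and 3 fell, 31.1% against 25.6% of all genes. The largest changes were those of Shisa3, which holds back Frizzled maturation (3.03 ± 0.66, edgeR adjusted p = 0.00756), Ccn2, a matrix protein gene also driven by other pathways (2.25 ± 0.36, 0.00167), the glypican Gpc3 (1.59 ± 0.43, 0.0207), the co-receptor Ptk7 (1.29 ± 0.18, 0.000904), Dixdc1 (1.12 ± 0.24, 0.00706) and Ccn4, a known Wnt target (1.05 ± 0.23, 0.00694). Ccn2 went from 53.8 ± 27.9 to 301 ± 96.7 CPM (SD, n = 5 each) and Ptk7 from 24.2 ± 6.32 to 71.9 ± 21.9. Among those that fell was Tcf7l1, a mostly repressive relative of Tcf7 (-0.80 ± 0.17, 0.00615).

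In the pericyte or smooth muscle-like class 2 of 29 rose and 5 fell (24.1% against 19.3% of all genes), with Ccn2 (1.85 ± 0.50, edgeR adjusted p = 0.0221) and Kremen1 (1.09 ± 0.31, 0.0298) up and Bambi (-1.46 ± 0.25, 0.00264), Tle1 (-0.82 ± 0.21, 0.0179), Tcf7l2 (-0.73 ± 0.18, 0.0133) and Tcf7l1 (-0.70 ± 0.15, 0.00842) down. In the Fcgbp keratinocytes 2 of 35 rose and 7 fell (25.7% against 25.5%), among them Ccn2 (1.28 ± 0.33, 0.0134), Gpc3 (-0.96 ± 0.30, 0.0308), Apcdd1, a secreted-signal inhibitor at the membrane (-0.81 ± 0.19, 0.00774), Tle4 (-0.75 ± 0.21, 0.0209), Myc (-0.73 ± 0.24, 0.0373) and Tnfrsf19 (-0.72 ± 0.18, 0.0116). In the lymphatic endothelial-like class 1 of 23 rose, Ccn2 (1.87 ± 0.35, 0.00431), and 2 fell, Tle4 and Bambi (13% against 11.6%). In the vascular endothelial-like class 1 of 31 rose, Ptk7 (0.88 ± 0.26, 0.0436), and 3 fell, Tle4, Bambi and Myc (12.9% against 12.2%). These shares lie near those of all genes. A single gene fell in each of the Fmod cells (Tcf7l1 of 41), Krt24 keratinocytes (Gpc6 of 40), Tnn cells (Trabd2b of 43), dendritic-like class (Tle3 of 20) and macrophage or monocyte-like class (Myc of 23), where 3.41%, 4.07%, 7.31%, 12.7% and 22.5% of all genes were called. None of 38 was called in the dermal papilla-like class, and none of 35, 25, 9, 13 and 15 in the Hoxc13 keratinocytes and the Schwann-like, alpha beta T-like, gamma delta T-like and melanocyte-like classes.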

How the data were processed

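Single-cell mRNA was measured in 10 libraries of mouse back skin, and 8 further samples hold the hashtag reads of the same pools. The authors deposited a gene by cell matrix of UMI counts for each library, whole numbers per the file headers, made with Cell Ranger 6.1.2 on mm10 per the submitters' processing notes. Cells needed at least 200 genes, 500 UMIs and at most 10% mitochondrial UMIs, which left 47251 of 55174 barcodes. Cells marked as doublets by Scrublet (809) or by hashtags (1101; HTODemux, Seurat 5.3.0) were removed, which left 45488. Clusters (scanpy 1.11.5, leidenalg 0.10.2, members left out of the variable genes) were named from marker lists or leading genes, and these rebuilt names may differ from the study's. Counts were summed per class and library (at least 20 cells, at least 4 libraries an arm) and tested with edgeR 4.0.16 (TMM, filterByExpr, quasi-likelihood, day as a factor, Benjamini-Hochberg over all genes of the class). On simulated data for the fibroblast-like class, 65% of genes changed by 1 and 92% of genes changed by 2 on the log2 scale were recovered (11818 genes). For changes of 1 the lowest recovery was 39%, in the Hoxc13 keratinocytes, and the highest 78%, in the Krt24 keratinocytes.

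The members and lists were chosen with earlier results of these data known. Named are every called member of a class, the leading members by role, the 3 lowest p in a class without calls, and up to 6 called pathway genes a class. Alternatives were DESeq2 1.42.0, no filter on low counts, each day and sequencing round as a block, a 5% mitochondrial limit and no doublet removal. Others were cells thinned to 2000 UMIs, mice as units and each library left out. The labels give the rounds as sequencing rounds, and the control and expanded libraries of the same day and round were taken to share a batch. Whether rounds of the same number share a batch across days is not stated. Of 26 correlations of their deviations within a day, 18 were over 0.1 (-0.0219 to 0.327, median 0.167). Blocked values stand beside the results they change. Gene positions are from GENCODE vM21 and promoters from RefSeq; no genome sequence was used.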

Additional observations from a re-analysis of the deposited data

Results flagged for a closer look

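Of 70 groups of 4 or 5 libraries, 5 had a value set apart from the rest by Dixon's criterion; chance gives about 5% of such groups. In the Fmod cells, the control of day 1 round 2 had 97.6 CPM of Dkk3, and the next library 61.6. In the dermal papilla-like class, the control of day 2 round 1 had 30.2 CPM of Sfrp2, from 4 UMIs, and the next library 58.1, while the expanded library of day 1 round 2 had 26 CPM of Wnt4 and the next 17.2. Among the expanded libraries of the fibroblast-like class, day 1 round 2 had 13.1 CPM of Fzd5 against 9.53 in the next, and day 1 round 1 had 61.8 CPM of Axin2 against 38.9.

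Calls of opposite sign in a pair of classes were found for 2 members. In every pair of libraries, Fzd8 was higher in the Fmod cells and lower in the pericyte or smooth muscle-like class. Its edgeR effects were 0.99 and -1.34 on the log2 scale, and the flagged difference was 2.22. Rspo3 was higher in the fibroblast-like and lower in the dermal papilla-like class, again in every pair. Its edgeR effects were 2.10 and -1.34, and the flagged difference was 3.51. Within the Mme cluster alone the fibroblast-like Rspo3 call did not pass. That cluster held 5.03% of the control and 22.7% of the expanded cells of the class. The dermal papilla-like Rspo3 call was kept in 4 of 8 fits with 1 library left out. Fzd8 and Rspo3 were picked for the opposite signs of their calls, and the differences between classes were not tested. The flagged differences are a separate measure and not the differences of the edgeR effects.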

How the results depend on the processing

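Of 594 values of single called members under other settings, 437 kept their direction and their side of the threshold, 152 kept the direction only and 5 reversed; of 210 levels, 209 moved by under 1 SD, and Wnt4 in control Hoxc13 keratinocytes went from 97.5 to 82.8 CPM without doublet removal. The 5 reversals were within single clusters of the fibroblast-like class, chosen after seeing the data: Sfrp1 1.41, Rspo3 -0.13 and Axin2 -0.43 in the Mme cluster, and Lrp6 0.048 and Sfrp5 -0.80 in the Apod cluster. Numbers of called members outside 1.5 times the reported ones follow, in which the cause was not tested unless the setting tests other genes or fewer UMIs. With no filter on low counts, which tests more genes, they were 5 in the Fcgbp, 4 in the Hoxc13 and 3 in the Krt24 keratinocytes, 4 in the Tnn cells, and 2 in the Schwann-like, 5 in the dendritic-like, 9 in the dermal papilla-like, 1 in the gamma delta T-like, 6 in the macrophage or monocyte-like, 1 in the melanocyte-like, 4 in the pericyte or smooth muscle-like and 2 in the vascular endothelial-like class. With cells thinned to 2000 UMIs they were 0 in the Fcgbp and Krt24 keratinocytes and the lymphatic, pericyte or smooth muscle-like and vascular classes, 3 in the Fmod cells, 1 in the dendritic-like, 2 in the dermal papilla-like and 7 in the fibroblast-like class. Some called members were not tested with thinned cells, so the lower numbers are not all lost calls. Among these were Porcn in the Fcgbp and Krt24 keratinocytes, and Wnt5a and Fzd8 in the pericyte or smooth muscle-like class. Others were Wnt5b and Fzd8 in the Fmod cells, Wls in the dendritic-like and Wnt4 in the dermal papilla-like class. With mice as units the numbers were 0 in the Fcgbp keratinocytes, where Porcn was not tested, 0 in the vascular class and 2 in the macrophage or monocyte-like class. With the 5% mitochondrial limit the number was 0 in the Fcgbp keratinocytes. DESeq2 called 1 in the dermal papilla-like, 2 in the macrophage or monocyte-like and 2 in the vascular class. Total-UMI scaling gave 0 in the vascular class, the Rbp7 cluster alone 0, the Clec12a cluster alone 0, the Apod cluster alone 1 and the Mme cluster alone 7. With the sequencing round as a block the number was 2 in the Fcgbp keratinocytes and 2 in the macrophage or monocyte-like class, and within 1.5 times elsewhere. For the difference between day 2 and day 1, no filter gave 1 in the Fmod cells, 2 in the Tnn cells, 1 in the dendritic-like, 3 in the fibroblast-like, 1 in the macrophage or monocyte-like and 1 in the pericyte or smooth muscle-like class, and DESeq2 1 in the fibroblast-like class. Leaving out 1 library gave 10 to 13 calls in the fibroblast-like class, 2 to 7 in the Fmod cells, 2 to 3 in the Tnn cells, 0 to 4 in the dermal papilla-like, 2 to 4 in the pericyte or smooth muscle-like, 1 to 2 in the macrophage or monocyte-like and 2 to 2 in the dendritic-like class. It gave 0 to 1 in the Fcgbp and Krt24 keratinocytes and the lymphatic and vascular classes, and 0 to 0 in the 5 classes without calls and in every comparison of day 2 with day 1. Depth limits the rarest members most: 11 could be tested in no class.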

Other observations

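In the Tnc cells, which had too few control libraries for a test, Wnt5a stood at 73.5 ± 33.6 CPM (SD, n = 3) in control and 121 ± 25.7 (n = 5) in expanded libraries, and Nkd2 at 50 ± 4.23 and 96.3 ± 29.8. In the sebaceous-like class, which had too few expanded libraries for a test, Porcn stood at 7.07 ± 4.4 CPM (n = 4) and 26.3 ± 19.2 (n = 3), and Wnt10a at 21.3 ± 1.19 and 41.2 ± 9.43. The Langerhans-like class was led by Ccl22, Il4i1 and Ccr7, the last a marker of the dendritic list. Wnt11 stood there at 30 ± 11.8 CPM (n = 3) in control and 9.31 ± 11.5 (n = 4) in expanded libraries, with between 1 and 18 UMIs in each expanded library used.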
